A study of Mus musculus with 8 samples.

Results

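Malignant peripheral nerve sheath tumors (MPNSTs) arise in the Schwann cell lineage, where genes of epithelial filaments and of neurosecretory cells are not usually active. The 9 genes described here, of 50600 listed in the count table, were the keratins *Krt12*, *Krt20*, *Krt7*, *Krt8*, *Krt18*, *Krt19* and *Krt80*, the transcription factor *Insm1* and the secreted neuronal pentraxin *Nptx1*. *Insm1*, *Krt12*, *Nptx1* and *Krt20* were selected on their measured counts in these libraries, as some of the largest falls with the MET kinase inhibitor capmatinib, so their response to the drug is given as a description with no test. The 5 other keratins were taken for comparison.

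The cells were the mouse MPNST line NF1-MET, from a tumor with the genotype Nf1 fl/ko, lox-stop-lox MET tg/+ and Plp-creERT tg/+, which is *Met*-amplified and wild type for *Trp53*. NF1-MET;sgP53 (below also the sgP53 line) is 1 line made from it by CRISPR-Cas9 with a guide against *Trp53*, so the effect of the guide and that of deriving this 1 line cannot be told apart. The labels give the control line as NF1-MET with genotype WT, but its library names begin with SEV, and the study's methods also describe NF1-MET cells that received the vector without a guide. Whether these libraries came from parental or from empty-vector cells is not settled by the sources used here, and each difference between the lines is to be read with that limit. Each line received DMSO (vehicle) or 100 nM capmatinib for 24 h, and each of the 4 groups had 2 libraries of poly(A) RNA. The labels call the replicates biological but do not say whether they were more than wells treated in duplicate, so the p-values measure the spread between these libraries, which may be technical.

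Summed counts per library were 30116810 to 42781371, and the share taken by *Gm42418*, a gene that overlaps ribosomal repeats, ranged from 1.11 to 13.1%. *Trp53*, the targeted gene, was at 188 ± 7.70 CPM (SD, n = 2; counts scaled for library size by TMM) in NF1-MET vehicle and 98.8 ± 1.82 CPM in NF1-MET;sgP53 vehicle, a level that includes any edited transcript. Of the Schwann cell markers, *Sox10* had 0 to 7 counts in each of the 8 libraries, while 5 of 17 reached 1 CPM in NF1-MET vehicle. Among them were *Ncam1* at 129, *Pmp22* at 23.1, *Gap43* at 18.4 and *Egr2* at 16.1 CPM. The list summed to 199 to 205 CPM there and to 385 to 393 CPM with capmatinib, of which *Ncam1* gave 129 and 189 CPM.

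Keratins build intermediate filaments from 1 type I and 1 type II chain, and each epithelium uses its own pairs. *Krt8* with *Krt18* is the pair of simple epithelia, *Krt7* and *Krt19* belong to ductal epithelia, *Krt20* is the type I keratin of intestinal, urothelial and Merkel cells, *Krt12* is the type I keratin of the corneal epithelium, and *Krt80* is a type II keratin of many epithelia. INSM1 is a zinc finger repressor of neuroendocrine and developing neural cells, and NPTX1 is a secreted pentraxin that helps to cluster AMPA-type glutamate receptors at synapses.

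The members lie in 4 places of the mouse genome (mm10, GENCODE M21 positions). *Krt12* (chr11:99415666-99422259, minus strand) and *Krt20* (chr11:99428403-99438150, minus strand) are neighbors in the type I keratin cluster with 6.14 kb between them, and *Krt19* (chr11:100140810-100148665, minus strand) lies in the same cluster. *Nptx1* is on the same chromosome at chr11:119538719-119547753 (minus strand). The type II cluster holds *Krt80* (chr15:101347444-101370162, minus strand), *Krt7* (chr15:101411043-101430313, plus strand) and *Krt8* (chr15:101996698-102004482, minus strand), followed by the type I gene *Krt18* (chr15:102028180-102032027, plus strand). *Insm1*, which has a single exon, is at chr2:146221921-146225020 (plus strand). All counts below are the deposited counts per gene.

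RefSeq promoters (mm10, 250 bases before to 50 after the start) were found for 5 of the 9 members. The 3 below are shown because *Krt12* and *Krt20* are the neighbors that fell together and *Krt7* is the keratin that moved the other way. They cover chr11:99422210-99422509 (minus strand), chr11:99438104-99438403 (minus strand) and chr15:101412153-101412452 (plus strand), and capitals mark matches on either strand to 3 short motifs, which are TATAAA for the core promoter box, GGAATG for the TEAD factors and GGGCGG for the factor Sp1.
Krt12: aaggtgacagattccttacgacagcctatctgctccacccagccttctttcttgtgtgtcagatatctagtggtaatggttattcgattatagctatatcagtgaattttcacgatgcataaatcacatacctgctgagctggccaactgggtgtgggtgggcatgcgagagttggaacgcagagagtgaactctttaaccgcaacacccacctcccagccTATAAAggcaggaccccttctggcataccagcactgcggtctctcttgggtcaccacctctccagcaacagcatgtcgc
Krt20: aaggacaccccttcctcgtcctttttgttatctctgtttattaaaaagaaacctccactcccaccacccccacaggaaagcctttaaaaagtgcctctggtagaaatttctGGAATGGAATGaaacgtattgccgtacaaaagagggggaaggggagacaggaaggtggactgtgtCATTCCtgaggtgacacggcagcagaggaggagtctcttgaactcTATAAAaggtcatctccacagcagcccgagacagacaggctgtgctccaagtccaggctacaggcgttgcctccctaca
Krt7: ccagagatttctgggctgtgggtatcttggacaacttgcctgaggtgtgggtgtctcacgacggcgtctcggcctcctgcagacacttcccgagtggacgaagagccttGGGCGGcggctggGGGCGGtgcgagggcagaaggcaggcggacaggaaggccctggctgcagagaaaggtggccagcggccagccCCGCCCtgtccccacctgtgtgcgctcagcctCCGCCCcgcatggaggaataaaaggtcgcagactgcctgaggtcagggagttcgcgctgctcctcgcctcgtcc

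*Krt12* and *Krt20* each carried TATAAA beginning 29 bases before the start. These letters occurred somewhere in 13.6% of 32851 promoters of this length, and in 2.12% they began 35 to 25 bases before the start. *Krt20* held the TEAD letters 3 times, at -139, -134 and -74, the first 2 of which share a base. At least 1 such match was present in 14.7% of promoters and 3 or more in 0.131%, a cutoff set after the *Krt20* promoter had been seen. *Krt7* had no TATAAA and held the Sp1 letters 4 times, at -141, -128, -56 and -24, where 35.7% of promoters held them at least once. No member promoter held TGANTCA (AP-1, 7.81% of promoters) or CGGAAG (ETS, 16.9%), while the E-box letters CANNTG, present in 72.3% of promoters, were found in those of *Krt12*, *Krt7*, *Krt8* and *Krt18*. *Krt8* had TATAAA 1 base before its RefSeq start, and the *Krt18* promoter had no match but the E-box. A match of letters is a description and not a binding site.

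In vehicle, *Krt20* was the most abundant of the 7 keratins per unit length, and both chosen keratins were nearly gone after 24 h of capmatinib in both lines. *Krt20* had 2324 and 2527 counts in NF1-MET vehicle, 25 and 27 in NF1-MET capmatinib, 718 and 767 in NF1-MET;sgP53 vehicle, and 16 and 13 in NF1-MET;sgP53 capmatinib. Every vehicle library was above every capmatinib library, and within vehicle every NF1-MET library was above every NF1-MET;sgP53 library. In CPM the means were 63.7 ± 0.468 (SD, n = 2), 0.803 ± 0.142, 19.4 ± 2.08 and 0.406 ± 0.0676 in the same order. The ratio of summed counts, scaled for library size, was 80.9 in NF1-MET (95% exact interval from counting error alone, 61.6 to 109) and 47.5 in the sgP53 line (32.9 to 71.2).

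*Krt12* had 409 and 358 counts in NF1-MET vehicle, 1 and 2 on capmatinib, 124 and 127 in NF1-MET;sgP53 vehicle, and 2 and 0 with capmatinib. Its order over the 4 groups was that of *Krt20* in vehicle, and both capmatinib groups were at or near the limit of detection. The summed counts were 222 times higher in vehicle in NF1-MET (75.6 to 1080) and 116 times higher in the sgP53 line (31.9 to 967), intervals that are wide because the capmatinib groups held 3 and 2 counts. The fitted log2 change of *Krt12* in the sgP53 line moved from -6.71 to -9.95 without NF1-MET;sgP53 capmatinib replicate 1. An antisense gene, *A830036E02Rik*, overlaps 1007 bases of *Krt12* exons and had 10 and 20 counts in NF1-MET vehicle, 2 and 4 in NF1-MET;sgP53 vehicle and 0 in the 4 capmatinib libraries. The strand setting of the counting is not given in the sources used here, so reads of the overlap cannot be assigned to either gene.

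The neural genes fell to the same range. *Insm1* had 883 and 911 counts in NF1-MET vehicle, 0 and 2 on capmatinib, 382 and 500 in NF1-MET;sgP53 vehicle, and 1 and 5 on capmatinib. Vehicle means were 23.6 ± 1.05 CPM (SD, n = 2) in NF1-MET and 11.4 ± 0.417 CPM in the sgP53 line, and no capmatinib library reached 6 counts. The ratio of summed counts was 778 (215 to 6430) in NF1-MET and 136 (62.4 to 373) in the sgP53 line. Its fitted log2 change moved from -9.46 to -12.68 without NF1-MET capmatinib replicate 2. In the sgP53 line it moved from -7.03 to -8.5 without NF1-MET;sgP53 capmatinib replicate 2.

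*Nptx1* had 1457 and 1558 counts in NF1-MET vehicle, 13 and 16 on capmatinib, 596 and 661 in NF1-MET;sgP53 vehicle, and 5 and 9 on capmatinib. The group means were 39.6 ± 0.759 CPM (SD, n = 2), 0.443 ± 0.0377, 16.4 ± 1.32 and 0.195 ± 0.0751. Unlike *Insm1* and *Krt12*, *Nptx1* and *Krt20* kept at least 5 counts in every capmatinib library. The ratio of summed counts for *Nptx1* was 90.2 (62.7 to 135) in NF1-MET and 83.3 (49.5 to 153) in the sgP53 line. These are bulk libraries, in which fewer cells that express a gene and less RNA per cell cannot be told apart.

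Among all tested genes ordered by fitted log2 fold change in NF1-MET, counted from the strongest fall, *Insm1* was at place 2, *Krt12* 3, *Nptx1* 10 and *Krt20* 13 of 14496. In NF1-MET;sgP53 the same genes were at places 2, 4, 8 and 18 of 14497. These places describe how the genes were chosen. A fall of at least 4-fold was present for 1.72% of tested genes in NF1-MET and 1.57% in the sgP53 line.

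**Figure D1:**
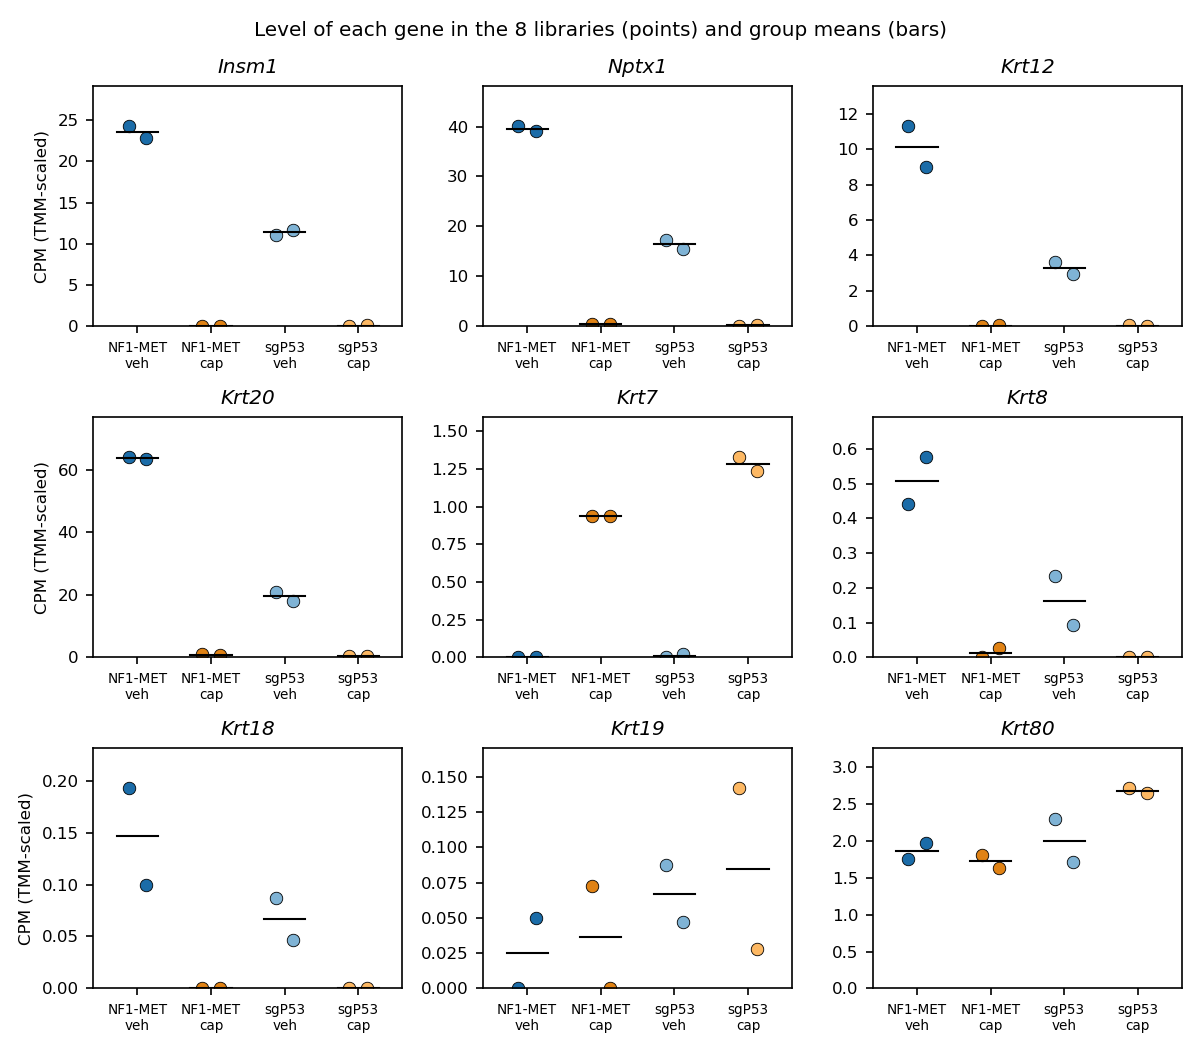
CPM (linear axes from 0, a scale for each gene) of the 9 genes in the 8 libraries, with points for libraries and bars for group means (n = 2); veh is vehicle, cap is capmatinib and sgP53 is the NF1-MET;sgP53 line. *Insm1*, *Nptx1*, *Krt12* and *Krt20* are high in vehicle only, *Krt7* is at 0.938 and 1.29 CPM with capmatinib only, and *Krt80* is present in all groups.

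The 5 comparison keratins did not all move one way. *Krt7* and *Krt8* were tested in both lines and moved in opposite directions, *Krt80* was tested and did not pass, and *Krt18* and *Krt19* had too few counts to test. With the edgeR quasi-likelihood test and Benjamini-Hochberg adjustment over all genes, 2 of the 3 tested comparison keratins were called in each line, 1 higher and 1 lower. Of all tested genes, 70.2% were called in NF1-MET (35.5% higher and 34.7% lower) and 67.6% in the sgP53 line (34.2% higher and 33.4% lower). A member that passed the low-count filter through the group in which it was high had to differ, which was so for *Krt7*, with 10 or more counts in capmatinib libraries only, and for *Krt8*, with 10 or more in NF1-MET vehicle only, so these 2 calls are no evidence and the values of both genes are given below with no test.

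*Krt7* had 0 and 0 counts in NF1-MET vehicle, 26 and 36 on capmatinib, 0 and 1 in NF1-MET;sgP53 vehicle, and 47 and 45 on capmatinib. The capmatinib libraries of both lines were all above all vehicle libraries. *Krt7* was at least 23.8-fold higher with capmatinib in NF1-MET, against a floor of 3 counts over the vehicle group, and 99.2 times higher in the sgP53 line (counting interval 17.4 to 3960). Its level remained low, at 0.938 ± 0.00172 CPM (SD, n = 2) and 1.29 ± 0.0659 CPM in the 2 capmatinib groups. The annotated antisense gene *Gm671* shares 77 exonic bases with *Krt7*.

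*Krt8* went the other way at low counts, with 16 and 23 in NF1-MET vehicle, 0 and 1 on capmatinib, 8 and 4 in NF1-MET;sgP53 vehicle, and 0 and 0 on capmatinib. No capmatinib library overlapped a vehicle library. The ratio of vehicle to capmatinib was 33.8 in NF1-MET (counting interval 5.72 to 1370), and in the sgP53 line *Krt8* was at least 3.71-fold lower with capmatinib. Its partner *Krt18* had 7 and 4 counts in NF1-MET vehicle, 3 and 2 in NF1-MET;sgP53 vehicle and 0 in the 4 capmatinib libraries, which makes it at least 3.18-fold lower in NF1-MET with no test. *Krt19* had 0 to 5 counts in each library, with no separation of the groups.

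*Krt80* had 64 and 79 counts in NF1-MET vehicle, 50 and 63 on capmatinib, 79 and 73 in NF1-MET;sgP53 vehicle, and 96 and 96 on capmatinib. In CPM it was at 1.87 ± 0.154 (SD, n = 2), 1.72 ± 0.118, 2.00 ± 0.417 and 2.68 ± 0.0550. The log2 difference with capmatinib was -0.15 (SE 0.207) in NF1-MET, with an edgeR adjusted p of 0.535. In NF1-MET;sgP53 it was 0.44 (SE 0.193), with an adjusted p of 0.0509. This fell to 0.0461 with a stricter low-count filter, 0.041 with a replicate block and 0.0422 in a model of all 8 libraries. The difference did not pass with DESeq2 size factors, the DESeq2 Wald test, library totals, no low-count filter or removal of *Gm42418*. Without NF1-MET;sgP53 vehicle replicate 1 it was 0.65.

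The count table lists 53 keratin genes, 28 of type I and 25 of type II, of which 33 had no count in any library and 7 passed the filter. The 2 that passed beside the members were the type I genes *Krt10*, a keratin of differentiating epidermis, and *Krt13*, a keratin of internal stratified epithelia. *Krt13* had 40 and 51 counts in NF1-MET vehicle, 2 and 1 on capmatinib, 12 and 20 in NF1-MET;sgP53 vehicle, and 0 and 1 on capmatinib, a ratio of 26.3 (counting interval 8.72 to 130) and 29.7 (4.96 to 1210). It held 10 or more counts in vehicle libraries only and so passed the filter through the groups in which it was high, and these ratios are a description with no test. *Krt10* had 70 and 93 counts in NF1-MET vehicle, 44 and 62 on capmatinib, 49 and 73 in NF1-MET;sgP53 vehicle, and 46 and 58 on capmatinib. Its log2 difference with capmatinib was -0.43 (SE 0.205, edgeR adjusted p = 0.0618) in NF1-MET and -0.12 (SE 0.235, adjusted p = 0.676) in the sgP53 line, and the NF1-MET difference passed with scaling by library totals (-0.62, adjusted p = 0.00628) and without NF1-MET vehicle replicate 1 (-0.55, adjusted p = 0.0405).

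Per unit length, type I transcripts greatly exceeded type II transcripts in vehicle. Type I keratins summed to 141 and 154 TPM (transcript level, here counts divided by exon length and scaled to the same total in each library) in NF1-MET vehicle and 50.8 and 49.6 TPM in sgP53-line vehicle, while type II keratins summed to 2.12 and 3.15 TPM and to 2.19 and 1.54 TPM. With capmatinib the type I sum was 4.29 and 3.75 TPM in NF1-MET and 3.36 and 4.13 TPM in the sgP53 line. The type II sum was then 1.58 and 1.30 TPM in NF1-MET and 2.44 and 2.72 TPM in the sgP53 line, so per unit length type I remained above type II in all 8 libraries. In counts the order turned with capmatinib, with 82 and 103 of type II against 75 and 96 of type I in NF1-MET. In the sgP53 line they were 153 and 147 against 72 and 75. The order per unit length rests on the merged exon lengths used, which were 7049 bases for *Krt7* and 6393 for *Krt80* against 1927 for *Krt20*. *Krt20* alone averaged 121 ± 9.11 TPM (SD, n = 2) in NF1-MET vehicle, followed by *Krt12* at 19.9 ± 1.55, *Krt10* at 3.71 ± 0.799, *Krt13* at 2.40 ± 0.449, *Krt80* at 1.08 ± 0.177 and *Krt8* at 0.958 ± 0.258. The last 2 of these overlapped between replicates, whereas *Krt20* and *Krt12* were each apart from the next gene by more than their spread.

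The composition of the keratin pool changed as well. *Krt20* made up 78.9 and 79.9% of keratin counts in NF1-MET vehicle and 70.9 and 71.2% in sgP53-line vehicle, but 15.9 and 13.6% and 7.11 and 5.86% with capmatinib. *Krt7* rose from 0% of type II counts in NF1-MET vehicle to 31.7 and 35% with capmatinib. The summed keratin TPM was 3.47 and 3.38% of the TPM of vimentin (*Vim*), the mesenchymal intermediate filament, in NF1-MET vehicle, and 1.32 and 1.15% in NF1-MET;sgP53 vehicle. It was between 0.158 and 0.176% in the 4 capmatinib libraries.

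**Figure D2:**
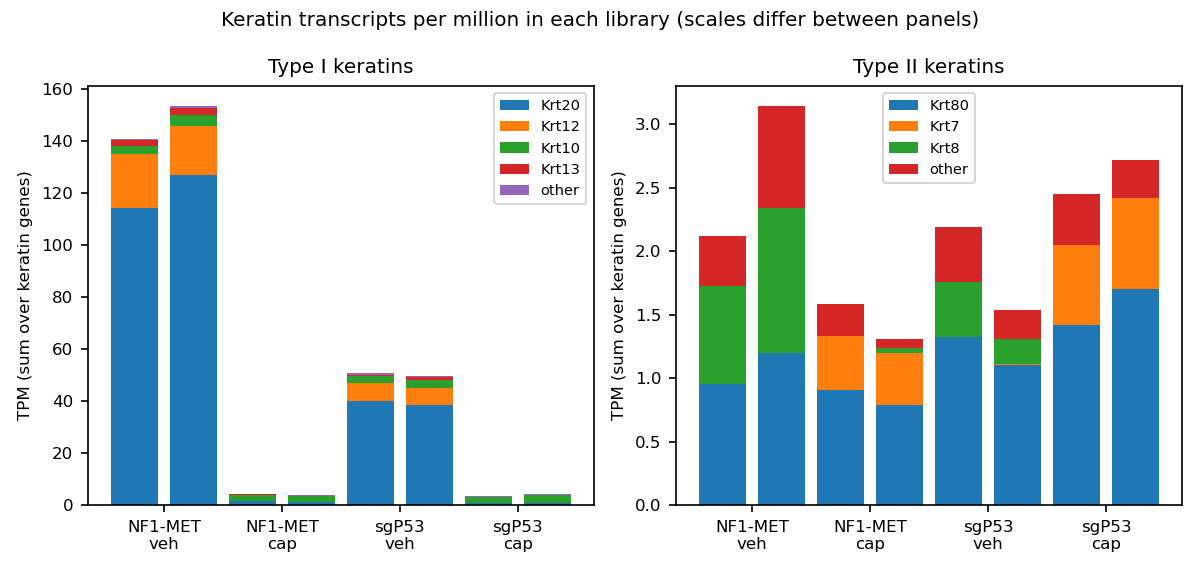
Summed TPM of type I (left) and type II (right) keratins in each of the 8 libraries, as stacked bars from 0 with different scales in the 2 panels. The type I sum is 141 and 154 TPM in NF1-MET vehicle and mostly *Krt20*, and it is at or below 4.29 TPM in all capmatinib libraries, where *Krt7* appears among the type II genes.

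The position of *Krt12* and *Krt20* was set against the response of the genes around them. The nearest tested gene below *Krt12* was *Krt10*, 26.3 kb away, and the nearest above *Krt20* was the keratin-associated *Krtap1-5*, 142 kb away, with log2 differences of -0.57 (SE 0.525, edgeR adjusted p = 0.344) in NF1-MET and 0.63 (SE 0.531, adjusted p = 0.307) in the sgP53 line. Within 700 kb of the *Krt20* start, the 15 other tested protein-coding genes ranged from -4.63 to 1.46 on the log2 scale in NF1-MET, and *Krt13*, in the same cluster and 19.2 kb from *Krt19*, was the only 1 of them lower by at least 4-fold.

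The type II cluster held opposite changes. Of the 21 other tested protein-coding genes within 700 kb of the *Krt8* start, 1 was lower by at least 4-fold in NF1-MET, the integrin gene *Itgb7*, 227 kb away, with log2 changes of -3.09 (edgeR adjusted p = 1.42e-18) and -2.58 in the sgP53 line (adjusted p = 8.72e-13). *Itgb7* was named after its value was seen. *Krt7* lies 40.9 kb from *Krt80*, whose change did not pass, and 566 kb from *Krt8*. *Eif4b*, a translation factor 69.3 kb beyond *Krt8*, differed by -0.24 (SE 0.0199, edgeR adjusted p = 1.48e-12) in NF1-MET and -0.15 (SE 0.0244, adjusted p = 9.14e-06) in the sgP53 line.

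The neighbors of the neural genes moved little beside them. *Cfap61*, a ciliary gene 6.88 kb from *Insm1*, rose by 1.75 (SE 0.358, edgeR adjusted p = 6.73e-05) on the log2 scale in NF1-MET, and *Ralgapa2*, 14.9 kb away on the other side, fell by 1.10 (SE 0.0687, adjusted p = 1.59e-15). *Rptor*, which encodes a subunit of mTORC1 and lies 55.2 kb from *Nptx1*, fell by 0.55 (SE 0.0372, adjusted p = 1.45e-14). *Endov*, 27.3 kb on the other side, differed by 0.17 (SE 0.0658, adjusted p = 0.0209), a difference that was -0.01 with scaling by library totals.

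**Figure D3:**
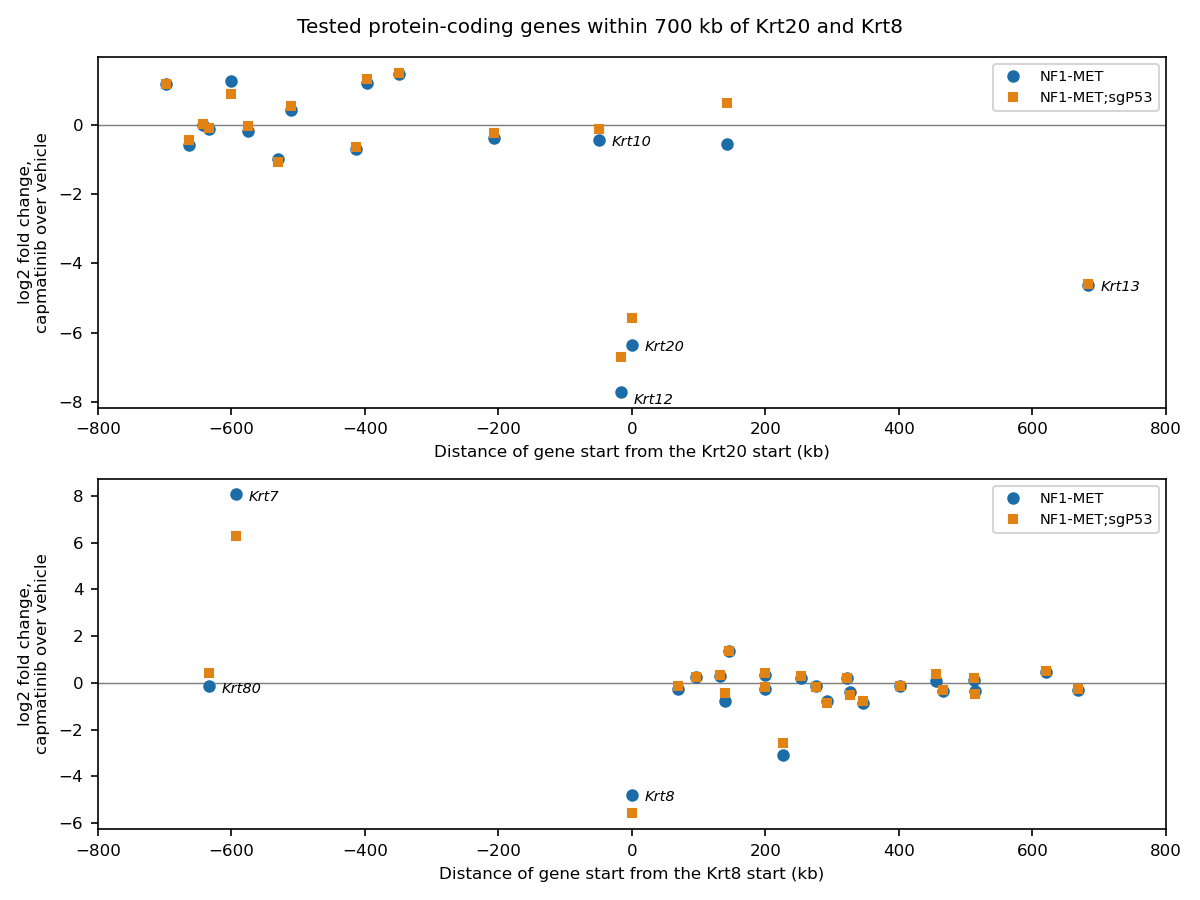
Log2 fold change with capmatinib of tested protein-coding genes against the distance of their start from that of *Krt20* (top) or *Krt8* (bottom) in kb, with circles for NF1-MET and squares for NF1-MET;sgP53. *Krt12* and *Krt20* stand far below the genes on either side of them, with *Krt10* at -0.43 and -0.12, and *Krt7* and *Krt8* lie on opposite sides of 0 (fitted values of genes with 3 or fewer counts in a group depend on the prior count).

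The lines were compared in vehicle, a contrast that the choice of the genes did not use but that shares its vehicle libraries. Before any drug, all 4 chosen genes were lower in the sgP53 line than in NF1-MET. *Krt20* was lower by a log2 difference of -1.74 (SE 0.0540), *Krt12* by -1.65 (SE 0.129), *Nptx1* by -1.30 (SE 0.0586) and *Insm1* by -1.06 (SE 0.0683). These 4 differences are given as a description with no p-value, since the genes were chosen for a fall from these vehicle libraries. Of the 6 members tested, 5 were called lower and 0 higher, and of all tested genes 12.3% were lower, 10.9% higher and 23.2% called in either direction. Nothing is read from the members' count, since 4 of the 5 were chosen for a fall from these vehicle libraries and the fifth, *Krt8*, passed the filter through NF1-MET vehicle alone and was not called by the DESeq2 Wald test.

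*Krt8*, with 10 or more counts in NF1-MET vehicle only, had to be lower in the sgP53 line to some degree, and its log2 difference of -1.71 (SE 0.506) is given with no test. *Krt13*, with 10 or more counts in every vehicle library, differed by -1.54 (SE 0.324, edgeR adjusted p = 0.00136). *Krt80* differed by 0.06 (SE 0.205, adjusted p = 0.882), with its sign turning when either 1 of 2 libraries was left out, and *Krt10* by -0.46 (SE 0.205, adjusted p = 0.123). The ratio of *Krt20* to *Krt12* counts was 5.68 and 7.06 in NF1-MET vehicle and 5.79 and 6.04 in sgP53-line vehicle, so both genes were lower together.

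With capmatinib the difference between the lines rested on few counts for all tested members but *Krt80* and *Krt7*. *Krt80* was higher in the sgP53 line by 0.65 on the log2 scale (SE 0.188, edgeR adjusted p = 0.0297), the 1 call among 6 tested members, where 12.3% of all tested genes were called, 5.94% higher and 6.34% lower. This call was lost with the DESeq2 Wald test (adjusted p = 0.249), with no low-count filter (0.067), and without NF1-MET capmatinib replicate 2 (0.57, adjusted p = 0.204), NF1-MET;sgP53 capmatinib replicate 1 (0.63, adjusted p = 0.0773) or NF1-MET;sgP53 capmatinib replicate 2 (0.67, adjusted p = 0.0522). The falls that chose *Krt20*, *Nptx1*, *Insm1* and *Krt12* rest on these capmatinib libraries too, so their differences are a description with no p-value. *Krt20* differed by -0.96 (SE 0.375) and *Nptx1* by -1.15 (SE 0.503). *Insm1* and *Krt12*, with 0 to 5 counts in each capmatinib library, differed by 1.37 (SE 1.18) and -0.63 (SE 1.3). The sign of each turned without NF1-MET;sgP53 capmatinib replicate 2 (-0.08 and 0.30).

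How far the change with capmatinib differed between the lines is given for the chosen genes as a description, since the falls that chose them enter it, and for *Krt7* and *Krt8* no value is read because of the filter. The log2 difference in the fall was 0.77 (SE 0.344) for *Krt20*, smaller in the sgP53 line, and 0.12 (SE 0.508) for *Nptx1*. It was 0.99 (SE 1.63) for *Krt12* and 2.42 (SE 1.06) for *Insm1*. In the capmatinib groups of NF1-MET and the sgP53 line, *Krt12* rested on 3 counts against 2 and *Insm1* on 2 against 6. *Krt80*, which the choice did not use, gave 0.57 (SE 0.281, edgeR adjusted p = 0.243), where 9.71% of all tested genes were called. At this depth the standard errors leave such differences undetermined, and they do not show that the lines responded alike.

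**Figure D4:**
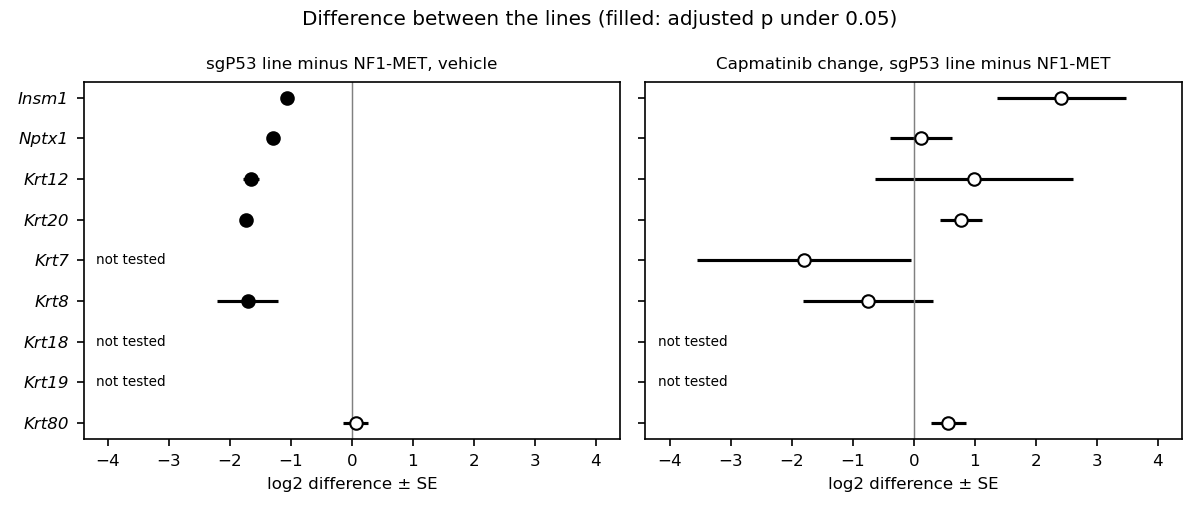
Log2 difference with its standard error between NF1-MET;sgP53 and NF1-MET in vehicle (left) and between the lines in the change with capmatinib (right), with filled points for an adjusted p under 0.05. In vehicle, *Insm1*, *Nptx1*, *Krt12*, *Krt20* and *Krt8* lie between -1.74 and -1.06 and *Krt80* at 0.06. Filled points in the left panel are no evidence, since the choice of the genes or, for *Krt8*, the filter enters them. In the right panel *Krt80* lies at 0.57 and *Insm1* at 2.42, with a standard error of 1.06.

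The genes most like the chosen ones over the 8 libraries were found by the distance between log2 CPM profiles centered on each gene's mean, over 12191 genes, and the shared drop with capmatinib sets most of this likeness. *Dmp1*, a matrix protein of bone and dentin, was nearest to *Krt12* (distance 0.897) and to *Insm1* (2.10), *Krt20* was nearest to *Nptx1* (0.974), and *Krt12* was nearest to *Krt20* (0.952). *Dmp1* had 16245 and 16676 counts in NF1-MET vehicle, 84 and 125 on capmatinib, 5213 and 6119 in NF1-MET;sgP53 vehicle, and 91 and 82 on capmatinib. *Rnf183*, a ubiquitin ligase gene at a distance of 1.35 from *Krt12*, had 248 and 265, 0 and 4, 113 and 110, and 2 and 1 counts in the same order of groups. The search used all 8 libraries, so the lower vehicle level of both genes in the sgP53 line was part of what chose them and is not tested.

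The programs that usually accompany these genes were then counted from lists that leave out the 9 members. Of the epithelial junction genes 13 of 31 could be tested, and with capmatinib 5 rose and 6 fell in each line, with a median log2 change of -0.06 in NF1-MET and -0.32 in the sgP53 line where the median of all genes was 0. These and the counts below stand beside 35.5% higher and 34.7% lower among all tested genes in NF1-MET and 34.2% higher and 33.4% lower in the sgP53 line, and nothing particular to a list is read from them. They include 9 genes that, like *Krt7*, passed the filter through 1 treatment alone, so that their direction was set. These were *Trp63*, *Rab3c*, *Mbp*, *Vgf*, *Cdh3*, *Erg* and *Vwf*, with 10 or more counts in capmatinib libraries only, and *Bnc1* and *Snap25*, with 10 or more in vehicle libraries only. The desmosomal plakophilin *Pkp1* fell, with log2 changes of -2.72 (SE 0.0553, edgeR adjusted p = 1.31e-28) in NF1-MET and -2.54 (SE 0.0717, adjusted p = 2.18e-18) in the sgP53 line, and the cornified envelope gene *Ppl* fell, with log2 changes of -3.28 (SE 0.148, adjusted p = 3.25e-19) and -2.43 (SE 0.152, adjusted p = 3.19e-12). The tight junction gene *Cldn1* rose by 3.37 (SE 0.329, adjusted p = 8.98e-11) and 3.22 (SE 0.258, adjusted p = 2.31e-10). Another plakophilin, *Pkp2*, rose by 1.98 (SE 0.089, adjusted p = 2.96e-19) and 1.34 (SE 0.084, adjusted p = 3.24e-12). *Cdh1*, the cadherin that defines epithelia, had 0 to 4 counts per library, *Epcam* had 0 to 7, and *Cldn3*, *Cldn4*, *Dsg2* and *Dsg3* were at 0 in all 8 libraries.

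Of 25 epithelial regulators 6 were tested, of which 4 were called higher and 2 lower in each line. The 4 include *Trp63*, a master factor of stratified epithelia, with 0 counts in NF1-MET vehicle and 13 and 15 on capmatinib, and 0 to 1 and 20 to 25 in the sgP53 line, whose direction the filter had set. With library totals 2 rose in NF1-MET and 3 in the sgP53 line. The rises of *Tfap2a*, a factor of surface ectoderm and neural crest, and *Sfn*, an epithelial 14-3-3 protein, were 0.19 (SE 0.0367, edgeR adjusted p = 2.48e-05) and 0.39 (SE 0.118, adjusted p = 0.00392) in NF1-MET and were lost with library totals (0.01 and 0.20, adjusted p = 0.912 and 0.146), and that of *Sfn* also with the DESeq2 Wald test (adjusted p = 0.064) and without NF1-MET vehicle replicate 1 (0.30) or capmatinib replicate 2 (0.31). In the sgP53 line they rose by 0.44 (SE 0.0382, adjusted p = 8.87e-10) and 0.42 (SE 0.120, adjusted p = 0.00372), and *Sfn* was lost there with library totals (0.29, adjusted p = 0.0721) and without NF1-MET;sgP53 capmatinib replicate 1 (0.32). The 2 that fell were *Klf5*, with log2 changes of -0.86 (SE 0.0746, edgeR adjusted p = 5.2e-12) and -0.78 (SE 0.0787, adjusted p = 9.56e-09), and *Klf4*, with -0.81 (SE 0.0276, adjusted p = 1.69e-22) and -0.69 (SE 0.0342, adjusted p = 4.83e-14), both of them zinc finger factors of many epithelia. *Esrp1*, *Ovol2*, *Ehf* and *Elf5* were at 0 in all 8 libraries. Summed levels of this list were 296 to 299 CPM in NF1-MET vehicle and 211 to 214 CPM with capmatinib.

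The markers of cell types that use *Krt20* or *Krt12* were in part at 0 and in part well expressed. Of 11 Merkel cell markers, the mechanosensory cells of the skin, *Atoh1*, *Isl1* and *Pou4f3* were at 0 in all 8 libraries, while *Sox2*, *Ncam1* and *Piezo2* were at 152, 129 and 35.3 CPM in NF1-MET vehicle, and of the 5 tested 2 rose and 3 fell in NF1-MET and 2 rose and 2 fell in the sgP53 line. The list summed to 315 to 319 CPM in NF1-MET vehicle, 245 to 249 with capmatinib, 254 to 270 in NF1-MET;sgP53 vehicle and 243 to 249 with capmatinib. *Sox2*, which is also a factor of neural progenitors, fell, with log2 changes of -2.55 (SE 0.0363, edgeR adjusted p = 5.65e-33) and -2.03 (SE 0.0482, adjusted p = 9.75e-20). Of 13 corneal markers, 3 rose and 3 fell of 7 tested in NF1-MET and 2 rose and 4 fell in the sgP53 line, and *Krt5* and *Ehf* were at 0 throughout. In NF1-MET vehicle 6 of the 13 corneal markers reached 1 CPM and the list summed to 449 to 458 CPM. Most of that sum was *Klf4* at 209 and *Tkt* at 180 CPM, with *Aldh3a1* at 36.2, *Klf5* at 20.1 and *Pax6* at 1.25 CPM. Of 13 gut and bladder markers, 1 of 4 tested rose and 0 fell in each line, and *Cdx1*, *Cdx2*, *Upk2* and *Upk3a* were at 0 in all libraries. Of the mesothelial list only 2 of 9 genes were tested, both called lower in each line where 34.7 and 33.4% of all tested genes were, a count too small to set apart from that share, and *Msln* had log2 changes of -2.19 (SE 0.228, adjusted p = 3.92e-10) and -1.10 (SE 0.250, adjusted p = 0.000516), and *Wt1* was at 0.

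Other intermediate filaments changed in both directions, with 3 higher and 6 lower of 11 tested in NF1-MET and 2 higher and 6 lower in the sgP53 line. The neurofilament light chain *Nefl* fell, with log2 changes of -4.0 (SE 0.05, edgeR adjusted p = 1.8e-34) and -3.69 (SE 0.06, adjusted p = 1.1e-22), and the medium chain *Nefm* had changes of -2.91 (SE 0.0507, adjusted p = 1.7e-30) and -2.75 (SE 0.0472, adjusted p = 2.92e-22). Synemin (*Synm*) rose by 2.66 (SE 0.167, adjusted p = 2.04e-15) and 2.49 (SE 0.149, adjusted p = 1.42e-12).

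Around *Insm1*, 11 of 23 neuroendocrine regulators were tested, of which 6 rose and 5 fell in NF1-MET and 4 rose and 5 fell in the sgP53 line, with medians of 0.12 and 0.09. With library totals 2 rose and 5 fell in NF1-MET. *Rcor2*, a corepressor of the REST complex, fell, with log2 changes of -0.66 (SE 0.0723, edgeR adjusted p = 1.27e-09) and -0.46 (SE 0.0734, adjusted p = 8.66e-06). *Nkx2-2* rose by 1.19 (SE 0.0816, adjusted p = 1.77e-14) and 1.13 (SE 0.0783, adjusted p = 1.92e-11). *Insm2*, *Neurod1*, *Neurog1* and *Neurog3* were at 0 in all libraries.

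Of the neuroendocrine secretory genes, 4 rose and 5 fell of 15 tested in NF1-MET and 7 rose and 4 fell in the sgP53 line, against 2 and 7 and 3 and 4 with library totals. The vesicle sensor *Syt7* fell, with log2 changes of -1.79 (SE 0.0837, edgeR adjusted p = 8.65e-19) and -1.84 (SE 0.0828, adjusted p = 8.88e-15), while *Cpe*, a carboxypeptidase that processes prohormones and was at 515 CPM of the list's 1110 to 1130 CPM in NF1-MET vehicle, rose by 0.41 (SE 0.0211, adjusted p = 1.02e-17) and 0.53 (SE 0.0276, adjusted p = 1.04e-13). The list summed to 1250 CPM in both libraries of NF1-MET capmatinib, and the granule protein gene *Chga* had 0 or 1 count in each library. Neuronal markers had 8 higher and 4 lower of 14 tested in NF1-MET and 7 higher and 3 lower in the sgP53 line, and medians of 0.47 and 0.42. *Map2* rose by 1.26 (SE 0.0491, adjusted p = 6.92e-21) and 1.63 (SE 0.0406, adjusted p = 2.49e-19), while *Gap43*, a growth cone protein, fell, with log2 changes of -2.72 (SE 0.101, adjusted p = 1.73e-21) and -2.52 (SE 0.0882, adjusted p = 1.11e-16).

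The other pentraxins and AMPA receptor genes moved in both directions. Of 9 tested, 3 rose and 4 fell in NF1-MET and 3 rose and 5 fell in the sgP53 line, with a median of -0.45 in each. The immune pentraxin *Ptx3* rose by 5.68 (SE 0.0616, edgeR adjusted p = 3.94e-36) and 3.89 (SE 0.0427, adjusted p = 1.02e-25), and the AMPA receptor subunit *Gria1* fell, with log2 changes of -1.01 (SE 0.0815, adjusted p = 1.18e-12) and -1.21 (SE 0.0798, adjusted p = 7.46e-12). *Nptx2*, the nearest relative of *Nptx1*, differed by -0.10 (SE 0.108, adjusted p = 0.426) in NF1-MET and fell by 0.45 (SE 0.0665, adjusted p = 2.88e-06) in the sgP53 line. Between the lines in vehicle, *Nptx2* was higher in the sgP53 line by 1.89 (SE 0.0778, adjusted p = 3.88e-13), the opposite direction to *Nptx1*.

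Of 10 tested Schwann cell markers, 5 rose and 2 fell in NF1-MET and 6 rose and 2 fell in the sgP53 line (4 and 3 in NF1-MET with library totals), with *Pmp22*, a myelin protein, up by 2.14 (SE 0.0407, edgeR adjusted p = 1.82e-29) and 2.03 (SE 0.0412, adjusted p = 5.73e-21), and *Gap43*, given above, on this list too and lower with -2.72 and -2.52. The fibroblast list summed to 8500 to 8580 CPM in NF1-MET vehicle and 34100 to 34600 CPM with capmatinib, with 6 of 9 tested genes higher and 3 lower, and in the sgP53 line with 6 higher and 1 lower. The immune list summed to 1.77 to 2.12 CPM in all 8 libraries, with *Cd3e*, *Itgam* and *Adgre1* at 0, and 1 of 2 tested genes higher and 1 lower in each line. The endothelial list summed to at most 3.63 CPM, with 2 of 2 tested higher in NF1-MET and 1 of 2 in the sgP53 line. The part of these lists in the falls of the members was not tested.

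**Figure D5:**
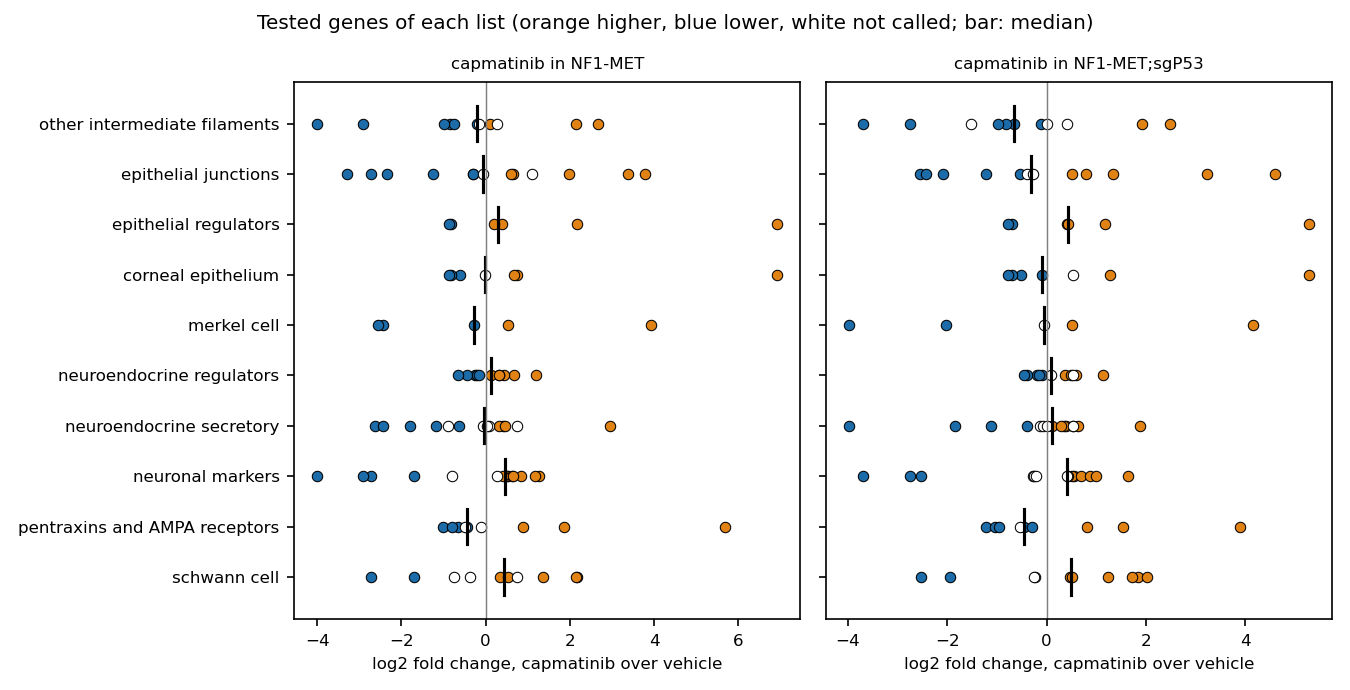
Log2 fold change with capmatinib of the tested genes of 10 lists in NF1-MET (left) and NF1-MET;sgP53 (right), without the 9 members, with orange for higher, blue for lower, white for not called and a bar for each list's median. The lists spread on both sides of 0, and the neuroendocrine regulators lie between -0.66 (*Rcor2*) and 1.19 (*Nkx2-2*) in NF1-MET.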

How the data were processed

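RNA was sequenced from 8 libraries, 2 for each of 4 groups. Per the labels, the authors used bcl2fastq 1.9.0, Trim Galore 0.4.2, FastQC 0.11.7 and STAR 2.5.2b with mm10, and deposited raw counts per gene. The annotation release and the strand setting of the counting are not given in the sources used here. Gene lengths and positions were taken from GENCODE M21, which holds 99.56% of the 50600 IDs, and promoters from RefSeq.

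A gene was kept if 2 or more of the 8 libraries held 10 or more of its counts (14497, among them 7 of the 9 members), and a comparison also needed counts in at least 2 of its libraries. Counts were tested in R 4.3.3 with the quasi-likelihood F-test of edgeR 4.0.16 after TMM normalization, with Benjamini-Hochberg adjustment over all genes and a threshold of 0.05. Each comparison used its own 4 libraries, while the interaction of line and drug used all 8. The test was also run on simulated counts with 1 fixed spread, in which only genes with a mean of 10 or more counts were changed. That run says nothing of genes with fewer counts. CPM values are TMM-scaled, and ratios of summed counts carry 95% exact intervals for counting error only. Alternatives were DESeq2 1.42.0 (size factors or Wald test), library totals, other filters, a replicate block, 1 model of all libraries, removal of *Gm42418* and leaving out each library.

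The genes named were the members, other keratins past the filter, the nearest tested neighbors, the 3 genes most like each chosen member, *Trp53* and *Met*, and from each list at most 2 rises and 2 falls with at least 1 CPM, while genes given as absent or as the usual markers of a cell type were named after their values were seen. The members and the lists were chosen with earlier results of these data known. Some genes of the lists are not reported here and were left out of their counts.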

Additional observations from a re-analysis of the deposited data

Results flagged for a closer look

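The change with capmatinib differed between the lines, by the edgeR interaction test with an adjusted p under 0.05, for 24 genes named by rule. The rule names genes of the lists that this same test called, so it sets most of this count. Of all tested genes 9.71% were called. Each value below is the log2 change in NF1-MET;sgP53 minus that in NF1-MET.

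*Dmp1*, the gene most like *Krt12* and *Insm1* over the libraries, gave 1.17, a smaller fall in NF1-MET;sgP53, which is a description since its profile over these libraries chose it. *Sox2* gave 0.51 (adjusted p = 7.53e-06) and *Ppl* 0.84 (adjusted p = 0.0312), smaller falls as well, and the *Ppl* call was lost with the DESeq2 Wald test (adjusted p = 0.0727) and without each library in turn other than replicate 1 of NF1-MET;sgP53 vehicle and of NF1-MET;sgP53 capmatinib (0.62 to 0.86). *Ptx3* gave -1.80 (adjusted p = 3.67e-13), a smaller rise from a vehicle level of 9.77 ± 0.192 CPM (SD, n = 2) against 2.30 ± 0.135 CPM in NF1-MET.

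Among genes of the lists not described above, the difference was -0.59 for *Postn*, -0.44 for *Col1a1* and -0.17 for *Col1a2*, matrix genes of fibroblasts, and 0.89 for *Fap*, 0.51 for *Clu*, 0.24 for *Vamp2*, 0.23 for *Itga6* and -0.24 for *Cldn12*. With library totals all of these but *Postn* and *Fap* were no longer called, and *Clu* and *Vamp2* were also lost with the Wald test. The *Clu* call was lost without any 1 library other than NF1-MET vehicle replicate 1 and NF1-MET;sgP53 capmatinib replicate 1 (0.38 to 0.59), that of *Vamp2* without any of NF1-MET vehicle replicates 1 and 2, NF1-MET capmatinib replicate 1, NF1-MET;sgP53 vehicle replicate 1 and NF1-MET;sgP53 capmatinib replicate 1 (0.19 to 0.26), that of *Fap* without NF1-MET;sgP53 vehicle replicate 2 (0.74) and that of *Cldn12* without NF1-MET;sgP53 capmatinib replicate 2 (-0.17).

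Smaller positive differences were 0.35 for *Map2*, 0.33 for *Tubb3*, 0.23 for *Tfap2a*, 0.23 for *Cplx2*, 0.17 for *Lmna*, 0.16 for *Met*, 0.15 for *Nptxr* and 0.08 for *Vim*. Negative differences were -0.66 for the desmosomal gene *Pkp2*, -0.39 for the synaptic adhesion gene *Lrrtm2*, -0.36 for *Egr2* and -0.28 for *Dpysl3*. With scaling by library totals *Tubb3*, *Tfap2a*, *Cplx2*, *Lmna*, *Met*, *Nptxr*, *Vim*, *Lrrtm2*, *Egr2* and *Dpysl3* were no longer called. The *Nptxr* call was also lost with the Wald test and without any library other than NF1-MET;sgP53 vehicle replicate 1 (0.14 to 0.17). The *Vim* call was lost without NF1-MET vehicle replicate 1 or capmatinib replicate 2, that of *Lrrtm2* without NF1-MET vehicle replicate 1 (-0.33) or capmatinib replicate 1 (-0.34), that of *Cplx2* without NF1-MET capmatinib replicate 2 (0.18) and that of *Met* without NF1-MET vehicle replicate 2 (0.13).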

How the results depend on the processing

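The members that could be fitted kept their direction with capmatinib under all alternatives run. For all of them but *Krt80* the choice of the genes or the filter had set that direction, so nothing is read from it. Genes called between the lines in vehicle numbered 3355, against 2023 with library totals and 1933 with the DESeq2 Wald test, and between the lines in capmatinib 1778, against 666, 870 and, with no low-count filter, 1070. The difference between the lines in the capmatinib response called 1407 genes, against 315 and 894. Library totals moved the median of all genes by -0.18 and -0.12 for capmatinib in NF1-MET and NF1-MET;sgP53 and by 0.11 between the lines in capmatinib. Calls higher and lower were then 3508 and 6381 (5140 and 5029 with TMM), 3260 and 4933 (4963 and 4841), 1280 and 743 between the lines in vehicle (1580 and 1775), 537 and 129 in capmatinib (860 and 918) and 192 and 123 for the response (558 and 849), which without *Gm42418* was 873 and 612. The cause was not tested.

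How the members were chosen or passed the filter sets most of their counts of calls, which are given as a description. They numbered 2, 2, 5 and 1, beside 70.2, 67.6, 23.2 and 12.3% of all tested genes, in the capmatinib contrasts of NF1-MET and NF1-MET;sgP53 and between the lines in vehicle and in capmatinib. A stricter filter, which removes low members, left 0, 1 and 1 of the first 3. Between the lines in capmatinib, 0 were called with the Wald test, 0 with no filter and 2 in a model of all 8 libraries. Between the lines in vehicle 4 were called with the Wald test, which lost *Krt8* (adjusted p = 0.147). Leaving out 1 library gave 1 to 2, 1 to 2, 4 to 5 and 0 to 1. *Krt7* or *Krt8* could then fail the requirement of 2 libraries with counts in the capmatinib contrasts, while between the lines *Krt8* in vehicle (adjusted p = 0.129 without NF1-MET vehicle replicate 2 and 0.179 without NF1-MET;sgP53 vehicle replicate 2) and *Krt80* in capmatinib were tested and did not pass.

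Signs that turned were all of differences that did not pass, except *Endov* with capmatinib in NF1-MET (-0.01 with library totals). The *Krt8* difference in response was 0.12 with the Wald test and 1.69 without NF1-MET capmatinib replicate 2. *Krt80* between the lines in vehicle was -0.02 without NF1-MET vehicle replicate 1 and -0.15 without NF1-MET;sgP53 vehicle replicate 1. Without NF1-MET;sgP53 capmatinib replicate 2, *Insm1* and *Krt12* between the lines in capmatinib were -0.08 and 0.30 and the *Nptx1* response -0.30. Without replicate 1 of that group the *Krt12* response was -2.21 and *Krt10* with capmatinib in NF1-MET;sgP53 was 0.02. Without NF1-MET;sgP53 vehicle replicate 2 the *Krt7* response was 0.45 and *Krt10* was 0.03.

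Over the libraries left out, these values ran from -1.46 to 1.69 (*Krt8* response), -2.52 to 0.45 (*Krt7* response), -2.21 to 1.96 (*Krt12* response), -0.30 to 0.46 (*Nptx1* response), -0.15 to 0.27 (*Krt80*), -0.08 to 4.53 (*Insm1*), -3.74 to 0.30 (*Krt12*) and -0.28 to 0.03 (*Krt10*).

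The replicate numbers were not shown to pair the samples, since the correlation of replicate differences between groups ran from -0.05 to 0.10. A replicate block moved the calls between the lines in vehicle from 3355 to 3994, and added the *Krt80* call given above.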
